A study of Mus musculus with 79 samples.

Results

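Clustered histone genes are the short genes that make the bulk of the histone proteins of a dividing cell, and they lie side by side in a few places of the mouse genome. All gene symbols that begin with Hist1h, Hist2h, Hist3h or Hist4h were taken from the deposited expression tables, and no such symbol joined several genes. That gave 67 genes of the 23983 symbols in each table. They code for the linker histone H1 (6 genes) and the core histones H2A (18), H2B (18), H3 (12) and H4 (13). In RefSeq (build GRCm38.p6) all 67 were found, and 62 span less than 1000 bases. Hist1 holds 53 members at chr13:21715711-23934913, Hist2 holds 10 at chr3:96219885-96270192, Hist3 holds 3 at chr11:58948911-58955192, and Hist4h4 lies alone at chr6:136803993-136804431. One member, Hist3h2bb-ps, is annotated as a transcribed pseudogene.

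In a nucleosome, DNA wraps around an octamer of the core histones H2A, H2B, H3 and H4, and a linker histone H1 binds where the DNA enters and leaves it. Clustered histone genes are transcribed mainly while DNA is replicated, and most of their mRNAs end in a stem-loop bound by Slbp instead of a poly(A) tail. Npat, a factor of the histone locus body, drives their transcription. Methods that catch RNA by its poly(A) tail therefore miss most histone mRNA, whereas random priming of total RNA does not depend on a tail.

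The series follows cells of the caudal end of mouse embryos, where cells that express both T (Brachyury) and Sox2 give rise to spinal cord and to paraxial mesoderm. Of its 79 samples, the 9 bulk RNA libraries and 53 single-cell RNA profiles were analysed here, and samples of chromatin accessibility and of immunoprecipitated chromatin were not analysed here. All embryos were made from embryonic stem cells by tetraploid complementation, embryo tissue was pooled before it was dissociated and sorted by flow cytometry, and every bulk group is 1 library. The sort table holds T+, T+ Sox2+ and Sox2+ cells of wild-type (WT) C57BL/6N embryos at Theiler stage 12 (TS12), made with the TotalScript kit and random hexamers from the RNA of about 1000 cells. The knockout table holds 6 libraries made with the ScriptSeq v2 kit after depletion of ribosomal RNA, from about 20000 cells each. Its T+ cells come from WT C57BL/6N embryos and from T2J/2J (T KO) C57BL/6J embryos at TS12 and TS13, so genotype and substrain cannot be told apart. Its Tbx6+ pair comes from C57BL/6J embryos at TS14, and because titles and source names of that pair disagree on genotype it is named by its titles, WT and KO. The single cells are T+ Sox2+ cells of WT C57BL/6N embryos at TS13 from 1 Fluidigm C1 chip, for which the labels count 55 occupied capture sites and the table holds 53.

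Levels are in FPKM, which divides the fragments of a gene by its length and by the depth of the library. The bulk libraries hold an estimated 20.8 to 43.5 M fragments. Member values of at least 5 FPKM rest on 60 to 102197 fragments (median 2532), which gives a counting error of 0.313% to 12.9%. In T+ cells of the knockout table the T gene gave 69.8 and 76.4 FPKM in WT and 4.61 and 3.32 in T KO. Sox2 was at 2.82, 16.4 and 50.5 FPKM in the T+, T+ Sox2+ and Sox2+ cells. One library stood apart from the other 8. Of 1484 sensory receptor genes, which embryo cells are not known to use, 1050 were above 0 in the T+ WT TS12 library of the knockout table, with a summed level of 348 FPKM, against 24 to 37 genes and 11.6 to 26.4 FPKM in the others. Fits by limma without this T+ WT TS12 library leave 1 library in a group, so only their differences are read. Where T+ WT TS13 replaces it as the reference for T KO, stage differs as well. Counts, medians and differences of genotype and of stage that rest on it are also given without it, with exceptions. These are the contrast between the genotype effects of both stages, which needs it, and the limma results for genes that act with the histone genes, which were not refitted.

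The upstream sequences show how motifs differ between members. Printed here are the bases just before the start of 5 members: both protein-coding Hist3 genes, whose values differed most between the sorted cells, and the highest H2B member of the sort table, an H1 and an H4 member. Each reads 5′ to 3′ on the strand of its gene, from RefSeq GRCm38.p6, and ends at the base before the start. Capitals mark 4 motifs, searched on both strands. The first, TATAAA, is the core of the box many genes carry just before their start, and the second, CCAAT, is the site of the factor NF-Y. The third, ATTTGCAT, is an octamer known from H2B promoters, and the last, AAACACA, is known from H1 promoters. None of the 4 is contained in another.
Hist3h2a, chr11:58954513-58954684, plus strand: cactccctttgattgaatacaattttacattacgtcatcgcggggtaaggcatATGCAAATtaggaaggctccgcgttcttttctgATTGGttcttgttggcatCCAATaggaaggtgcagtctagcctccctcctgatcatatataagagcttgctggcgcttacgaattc
Hist3h2ba, chr11:58948731-58948910, plus strand: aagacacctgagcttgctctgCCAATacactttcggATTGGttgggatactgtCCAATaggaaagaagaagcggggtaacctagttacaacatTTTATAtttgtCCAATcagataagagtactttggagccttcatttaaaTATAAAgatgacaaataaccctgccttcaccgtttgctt
Hist1h2bl, chr13:21716184-21716363, minus strand: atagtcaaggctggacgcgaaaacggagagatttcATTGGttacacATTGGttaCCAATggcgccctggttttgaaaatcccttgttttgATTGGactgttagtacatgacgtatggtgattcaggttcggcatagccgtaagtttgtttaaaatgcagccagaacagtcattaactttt
Hist1h1e, chr13:23622559-23622738, minus strand: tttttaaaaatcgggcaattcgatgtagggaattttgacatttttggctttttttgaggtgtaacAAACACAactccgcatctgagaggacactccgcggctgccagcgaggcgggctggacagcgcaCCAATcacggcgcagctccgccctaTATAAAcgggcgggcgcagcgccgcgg
Hist1h4k, chr13:21750554-21750733, minus strand: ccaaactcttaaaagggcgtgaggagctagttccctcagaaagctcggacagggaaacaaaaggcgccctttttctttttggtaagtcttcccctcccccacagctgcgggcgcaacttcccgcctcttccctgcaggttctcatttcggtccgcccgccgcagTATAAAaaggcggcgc

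The stretch before Hist3h2a is all that lies between it and Hist3h2bb-ps, whose strand was not read. It holds the octamer on the opposite strand 119 bases before the start, and CCAAT on either strand. In windows from 250 bases before to 50 bases after the start, RefSeq gave promoters for 61 members and for 27025 genes in all. CCAAT was in 52 of 61 member promoters (85.2%) against 37.9% of all promoters, and TATAAA in 35 (57.4%) against 14.2%. The octamer was in 13 (21.3%) against 1.75%, in 7 of 18 H2A and 6 of 15 H2B promoters and in 0 of the H1, H3 and H4 promoters. AAACACA was in 5 of 6 H1 promoters against 7.14% of all promoters. CCAAT was in every H1, H2A, H2B and H3 promoter found and in 3 of 12 H4 promoters, and the Hist1h4k stretch shows only TATAAA. A match of letters is a description of the window and not a measured site.

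Many H2A and H2B genes of Hist1 stand head to head. Among the 61 members with a RefSeq promoter there were 9 such pairs, and partners did not share 1 level. Their start sites had 163 to 280 bases (median 179) between them. Members without a promoter entry, such as Hist1h2bc next to Hist1h2ac, could not be paired in this search. The pair Hist1h2ai and Hist1h2bl, whose starts are 228 bases apart, averaged 504 and 1078 FPKM in the sort table but 3749 and 1296 FPKM in the knockout table. The H2B gene was the higher partner in both tables in 4 pairs and the H2A gene in 3.

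Together the members made up 1.57%, 1.47% and 1.76% of all FPKM in the T+, T+ Sox2+ and Sox2+ libraries of the sort table. In the knockout table they made up 5.58% in T+ WT TS12, 8.48% in T+ T KO TS12, 8.74% in T+ WT TS13, 8.26% in T+ T KO TS13, and 4.23% and 3.83% in the Tbx6+ libraries titled WT and KO. Kit, cell number and table differ together between these 2 sets, so a difference in level between them cannot be told apart from the preparation. Of 64 members with a mean of at least 1 FPKM in 1 of the tables, 60 were higher in the knockout table and 4 lower, with a median ratio of 8.20 and a range of 0.530 to 120. Over all 67 members the mean levels of both tables ranked alike with Spearman's rho = 0.79, a description over genes that share libraries.

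**Figure D1:**
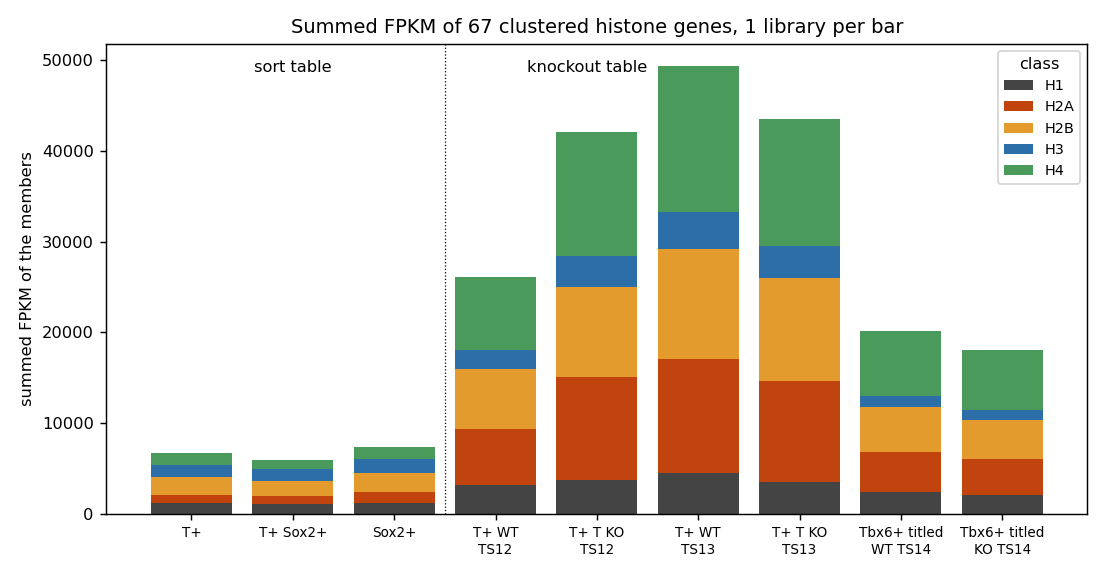
Bars give the summed FPKM of the 67 members in each of the 9 bulk libraries, split by histone class; each bar is 1 library and has no replicate error. The sums run from 5950 to 7378 in the sort table and from 18020 to 49330 in the knockout table, where H4 makes up the largest part.

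Among the linker histones, Hist1h1a, Hist1h1c and Hist1h1e had the highest means over the 9 libraries, a mean to which the knockout table adds most. In the sort table Hist1h1e was highest, at a mean of 631 FPKM, and Hist1h1a, at 96.3, the lowest apart from the testis member Hist1h1t. Hist1h1a was at 95.7, 75.6 and 118 FPKM in the T+, T+ Sox2+ and Sox2+ cells and, in the knockout table, at 1147 in T+ WT TS12, 1108 in T+ T KO TS12, 1288 in T+ WT TS13, 1005 in T+ T KO TS13 and 956 and 903 in the Tbx6+ pair. Hist1h1c was nearly level in the sort table (164, 147 and 143 FPKM) and was at 615, 777, 1009, 715, 367 and 342 FPKM in the knockout table in the same order. Hist1h1e was 1 of the 4 members that were lower in the knockout table: it was at 691, 548 and 655 FPKM in the sort table and at 314, 505, 615, 581, 200 and 134 FPKM in the knockout table. Hist1h1e made the largest part of the H1 sum in the sort table and a smaller one in the knockout table.

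Hist1h2ai, Hist1h2ak and Hist2h2aa1 led the H2A genes by that mean. In the sort table Hist1h2ap (mean 65.0 FPKM) and Hist1h2an (58.5) stood above Hist2h2aa1 (43.7). Hist1h2ai was at 438, 468 and 607 FPKM in the T+, T+ Sox2+ and Sox2+ cells. In T+ cells of WT and T KO it reached 2917 and 4883 FPKM at TS12 and 5692 and 5266 at TS13, and it was at 1975 and 1764 in the Tbx6+ libraries titled WT and KO. No member had a higher mean over the bulk libraries. Hist1h2ak ran from 182 to 231 FPKM in the sort table and from 456 to 1777 in the knockout table, and Hist2h2aa1 from 38.2 to 51.5 and from 577 to 1302.

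Of the H2B genes, Hist2h2bb, Hist1h2bl and Hist1h2bn were highest by the mean over 9 libraries. Hist1h2bl was the top member of all in the sort table, at 1114, 982 and 1139 FPKM, and was at 1038 to 2061 in the WT and T KO T+ libraries. Hist2h2bb was at 127, 80.3 and 138 FPKM in the sort table and at 2553 to 4308 in the same 4 libraries. So the order of these 2 H2B genes turns round between the tables. Hist1h2bn ran from 353 to 461 and from 720 to 1886 FPKM.

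For H3 the leading genes by that mean were Hist1h3h, Hist1h3i and Hist1h3g, whose mean levels in the knockout table were 1.22, 1.84 and 1.43 times those in the sort table. Hist1h3h was at 497, 549 and 622 FPKM in the sort table and at 272 to 1074 in the knockout table, with means of 556 and 677. H3 made up 19.4% to 22.4% of member FPKM in the sort table and 5.96% to 8.24% in the knockout table. H4 went the other way, with 16.3% to 20.5% and 31.2% to 36.5%. Hist1h4k, Hist1h4m and Hist1h4j led the H4 genes by the mean over 9 libraries, but in the sort table Hist1h4m (mean 43.6 FPKM) was below Hist1h4n (184), Hist1h4d (137) and Hist2h4 (108). Hist1h4k was at 406, 281 and 404 FPKM in the sort table and at 2236, 3733, 4230, 3637, 2192 and 1933 in the knockout table. Hist1h4m was at 50.2, 44.9 and 35.6 FPKM in the sort table and at 1656 to 4378 in the knockout table, a shift far larger than that of its neighbour Hist1h4n, which was at 149 to 203 and 76.7 to 251 FPKM.

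Near-identical copies limit such single values. Hist2h2aa2 was at 0.000203 to 0.000258 FPKM in the sort table and at 0 in 5 libraries of the knockout table, beside its copy Hist2h2aa1 at 577 to 1302 FPKM there. Hist2h3c1 stayed at or under 0.00572 FPKM in all 9 libraries while Hist2h3c2 was at 38.5 to 212. Hist1h2ap gave 14.5 (WT) and 95.4 FPKM (T KO) in T+ cells of TS12 and was listed at 0 in both TS13 libraries. Of 199 member values that rest on at most 1000 fragments, 64.8% came out as whole fragments within 0.1, where that tolerance alone would give 20%. All 3 values of Hist1h2bb and all 8 of Hist1h1t were whole. None were for the testis member Hist1h2aa (0 of 9), Hist1h2bj (0 of 5) and Hist1h2ao and Hist1h3b (0 of 3 each). These fragments rest on the RefSeq span of a gene and on an estimated depth, and the part of both in values that were not whole was not tested. How alike these copies are in sequence was not compared here, and how reads of near-identical genes were divided before deposit was not tested.

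The 5 members of a small group within Hist1 (chr13:22035122-22043658: Hist1h2ah, Hist1h2bk, Hist1h4i, Hist1h2ag and Hist1h2bj) were low together in the sort table. Their summed level was 19.4, 25.3 and 27.8 FPKM there and 423 to 1241 FPKM in the knockout table. By contrast the 17 members at chr13:21715711-21833475 summed to 3956 to 4858 and to 10169 to 28547 FPKM. The members of Hist2 ran from 258 to 432 FPKM in sum in the sort table and from 2754 to 6899 in the knockout table. Within Hist2, Hist2h4 (67.8 to 136 and 146 to 445 FPKM), Hist2h2ac (14.0 to 22.3 and 194 to 484), Hist2h2ab (1.96 to 2.69 and 47 to 107) and Hist2h3b (16.4 to 26.6 and 12 to 55) followed the genes above. Hist2h2be was at 0.848 to 2.16 FPKM in the 9 libraries. Hist4h4 was at 39.2, 20.5 and 41.9 FPKM in the sort table and at 111 to 305 in the knockout table.

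Testis members, which replace somatic histones while sperm form, were near the bottom. Hist1h1t was at 0 to 0.190 FPKM in the sort table and at 3.41 to 5.56 in the knockout table. Hist1h2aa was at 1.24 to 2.32 and 3.81 to 15.3 FPKM. Hist1h2ba was at or under 0.111 FPKM in all 9 libraries.

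Between the sorted fractions of WT TS12 embryos most members differed little. In T+ Sox2+ against Sox2+ cells 47 members passed the minimum of 5 FPKM in 1 of both libraries, and 40 of them were lower in T+ Sox2+ cells. The median difference of log2(FPKM + 1) was -0.30, against -0.02 over all genes, and the summed level was 5950 against 7378 FPKM. None of the 47 was at least 2-fold higher and 2 were at least 2-fold lower, where 1.51% and 1.44% of all genes were. Those 2 were Hist3h2ba and Hist1h4f (7.56 against 16.6 FPKM). Beside them, 38 of 41 genes of DNA replication were lower in T+ Sox2+ cells with a median of -0.32, and 24 of 25 genes of mitosis were higher with a median of 0.21. In pooled cells, fewer cells of a type and less RNA per cell cannot be told apart.

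T+ Sox2+ against T+ cells gave a median difference of -0.19 over 46 members, of which 31 were lower. Here 2 members were at least 2-fold higher and 0 lower, where 1.3% and 1.88% of all genes were. H4 genes had the lowest class median at -0.51, with 10 of 12 lower, among them Hist4h4 (20.5 against 39.2 FPKM), Hist2h4 (67.8 against 120) and Hist1h4a (13.3 against 22.1). In T+ against Sox2+ cells the median was -0.15 over 46 members, and 0 were at least 2-fold higher and 2 lower, where 3.65% and 3.24% of all genes were. These comparisons share libraries and so are not independent. All members past 2-fold in the last 2 comparisons, named after their values were seen, belong to Hist3.

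Hist3 lies on chromosome 11 within 6.28 kb and holds an H2A gene, Hist3h2a (RefSeq H2aw), an H2B gene, Hist3h2ba (H2bu2), and the H2B pseudogene Hist3h2bb-ps (H2bu1-ps). Hist3h2a stood at 14.6, 37.3 and 60.4 FPKM in the T+, T+ Sox2+ and Sox2+ libraries, from 214, 441 and 877 estimated fragments. Hist3h2ba was at 1.95, 11.2 and 25.1 FPKM from 26, 120 and 331 fragments. Hist3h2bb-ps was at 0, 1.48 and 4.21 FPKM from 0, 16 and 56 fragments. All 3 genes were lowest in T+ cells and highest in Sox2+ cells, and their 95% counting intervals did not overlap between any pair of the libraries. Such intervals cover the counting of fragments only, not the spread between libraries of a group.

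In T+ cells Hist3h2a was 4.14-fold and Hist3h2ba 12.9-fold lower than in Sox2+ cells. For Hist3h2bb-ps, at 0 in T+ cells, the level in Sox2+ cells was at least 18.9-fold higher, taking 3 fragments in the T+ library as the floor. The remaining 64 members summed to 6725 FPKM in T+ cells and 7289 in Sox2+ cells, a ratio of 0.923. The libraries also differ in the cells they hold. The 5 neural markers listed summed to 16.8, 32.8 and 91.3 FPKM in T+, T+ Sox2+ and Sox2+ cells. Of them 1, 3 and 5 were at 5 FPKM or more and none at or under 0.05 FPKM. Nes was at 11.3 FPKM in the T+ cells, Sox1 at 0.180 and Sox3 at 0.403. The 8 red cell markers summed to 15180, 142 and 273 FPKM, and the 8 presomitic mesoderm markers to 574, 721 and 209. The part of these in the Hist3 values was not tested.

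**Figure D2:**
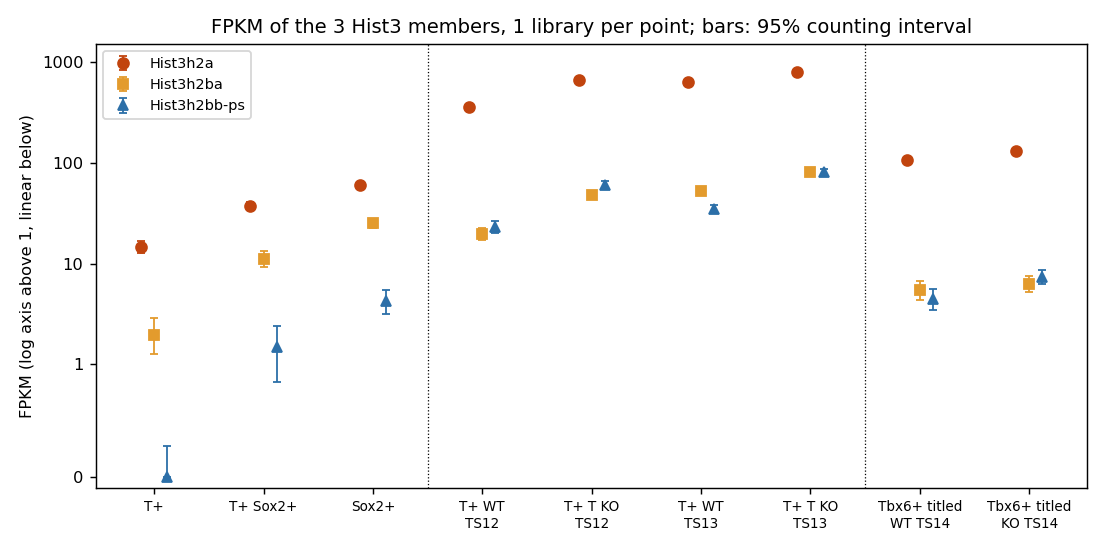
Points give the FPKM of Hist3h2a, Hist3h2ba and Hist3h2bb-ps in each bulk library, on an axis that is logarithmic above 1 and linear below; each point is 1 library and bars are 95% counting intervals only. All 3 climb from T+ to Sox2+ cells on the left, are higher in T KO than in WT T+ cells of the same stage in the middle, and are lower in the Tbx6+ cells on the right than in the T+ cells of the same table.

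In the T+ cells of the knockout table the 3 Hist3 genes were higher in T KO than in WT at both stages. Hist3h2bb-ps was at 23.1 (WT) and 60.1 (T KO) FPKM at TS12 and at 35.0 and 81.5 at TS13. Both T KO libraries were above both WT libraries. Hist3h2ba was at 19.6 and 48.0 FPKM at TS12 and at 52.3 and 80.6 at TS13, so the T KO library of TS12 was below the WT library of TS13 and genotypes overlapped across stages. Hist3h2a was at 358 and 655 FPKM at TS12 and at 624 and 791 at TS13, with both T KO libraries above both WT ones. Ratios of T KO to WT at TS12 and TS13 were 2.60 and 2.33 for Hist3h2bb-ps, 2.45 and 1.54 for Hist3h2ba and 1.83 and 1.27 for Hist3h2a.

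With genotype and stage as terms over these 4 libraries, limma with Benjamini-Hochberg adjustment found that 2 of 62 members rose in T KO and 0 fell, where 0.66% and 0.843% of 8187 genes did. Hist3h2bb-ps rose by a log2 difference of 1.27 (SE 0.15, adjusted p = 0.00208) and Hist3h2ba by 0.93 (SE 0.18, adjusted p = 0.0312). Hist3h2a had a difference of 0.61 (SE 0.22, adjusted p = 0.278), which did not pass. Without adjustment 8 members had a p under 0.05, which is 12.9% of the members against 12.6% of all genes: these 3, Hist1h2ab, Hist1h2ae, Hist1h2ap, Hist1h2be and Hist1h2bf. That count is no higher than the background. With 1 residual degree of freedom, the p-values rest on how alike the effect was at both stages and on variances pooled over genes. They do not measure the spread between embryos. Without the T+ WT TS12 library, limma on genotype alone had 1 WT library and no stage term, so its calls are not read. In that fit the member median was -0.20, and the difference was 0.98 for Hist3h2bb-ps, 0.25 for Hist3h2ba and 0.21 for Hist3h2a. The 5 neural markers summed to 16.8 (WT) and 21.9 FPKM (T KO) at TS12 and to 19.1 and 50.4 at TS13. In that order 1, 3, 2 and 4 of them were at 5 FPKM or more. The 8 presomitic mesoderm markers summed to 214, 48.7, 223 and 29.6 FPKM, with 8, 6, 8 and 2 at 5 FPKM or more. None of either list was at or under 0.05 FPKM. The 8 red cell markers summed to 1028, 477, 2988 and 2340 FPKM. The part of these markers in the Hist3 values and in those of the other members was not tested.

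Most other members did not keep 1 direction between the stages. At TS12 the members as a whole, Hist3 included, were higher in T KO: 59 of 61 had a positive difference, the median was 0.74 against 0.03 over all genes, and the sum was 42052 against 26149 FPKM, a ratio of 1.61. Without Hist3 it was 56 of 58, with a median of 0.73. With T+ WT TS13 as the reference, a library of another stage, the T KO library of TS12 had 11 of 62 members above 0. Without Hist3 it was 9 of 59 (median -0.22). At least 2-fold higher were 11 members and lower 0, where 0.992% of all genes were higher and 0.992% lower. Of the 11, 7 are H2A genes, 3 H2B and 1 H4. Hist1h2ae (16.2 in WT and 43.7 FPKM in T KO) and Hist1h2ac (45.8 and 120) followed Hist1h2ap, and Hist4h4 was at 134 and 305. Linker histones stood lower in this comparison, with a median of 0.34 and a sum ratio of 1.17, against 1.67 for the core classes. Against T+ WT TS13, of another stage, the same T KO library gave medians of -0.31 for linker and -0.20 for core histones. The sum ratios were 0.815 and 0.856 there. Hist1h1a (1147 in WT and 1108 FPKM in T KO) and Hist1h2aa (6.75 and 6.07) were the 2 with a negative difference.

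At TS13 the direction was the other way. Of 61 members 52 were lower in T KO, the median was -0.18 against -0.04 over all genes, and the sum was 43483 against 49330 FPKM, a ratio of 0.881. Without Hist3, 52 of 58 were lower, with a median of -0.20. Only Hist3h2bb-ps was at least 2-fold higher and 0 were lower, where 1.11% and 1.47% of all genes were. The lowest differences were those of Hist2h2ac (484 in WT and 291 FPKM in T KO), Hist2h2ab (107 and 69.1) and Hist1h2aa (15.3 and 9.62). Over the 62 members read at both stages, 50 were higher in T KO at TS12 and lower at TS13, 9 higher at both, 2 lower at both and 1 (Hist1h2ap) equal at TS13. The 9 were all 3 Hist3 genes, Hist1h2ab, Hist1h2bb, Hist1h2be, Hist1h2bf, Hist1h3f and Hist2h3b. The difference of the genotype effect between stages had a median of -0.88 and, with 1 library each, could not be tested.

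**Figure D3:**
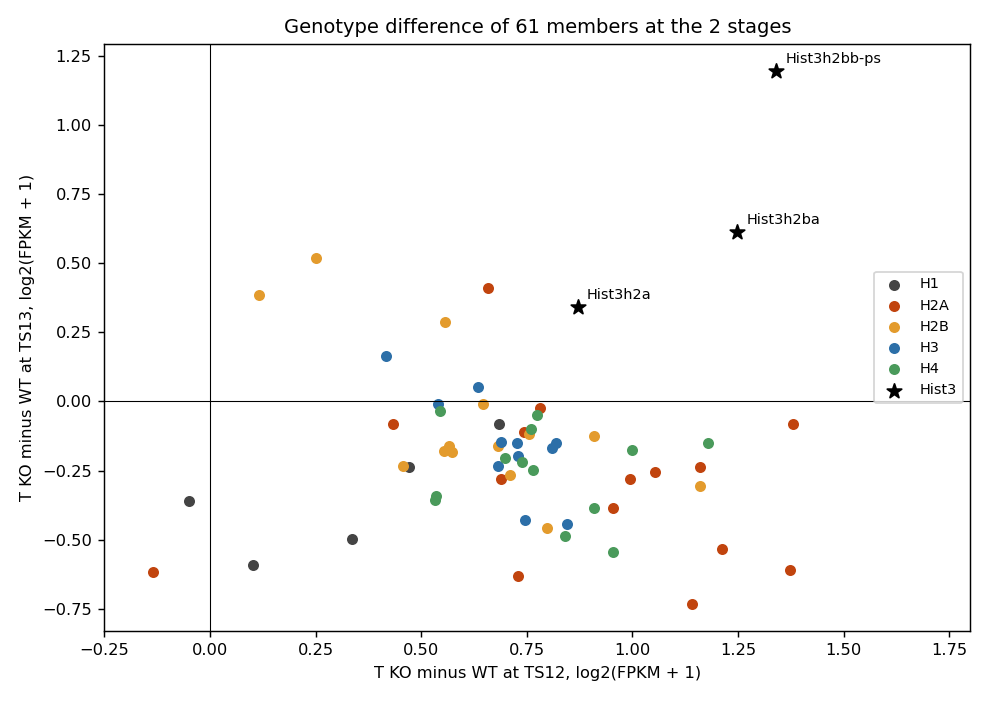
Each point is 1 of 61 members, placed by its T KO minus WT difference of log2(FPKM + 1) at TS12 (horizontal) and at TS13 (vertical); Hist1h2ap, listed at 0 in both TS13 libraries, is left out. Most points lie right of 0 and below 0, and the 3 Hist3 genes lie in the upper right.

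The T+ WT TS12 library bears on these values. From TS12 to TS13 the members were higher in WT T+ cells, with 61 of 62 above 0, a median of 0.97 and sums of 26149 and 49330 FPKM. At least 2-fold higher were 24 members and lower 1, where 0.962% and 0.385% of all genes were, with Hist1h4i (59.1 and 186 FPKM), Hist1h2ad (2.47 and 8.72) and Hist1h2ah (105 and 282) at the top. Beside them the red cell markers went from 1028 to 2988 FPKM and the 6 vessel markers from 55.8 to 76.5, with 3 and 4 of the latter at 5 FPKM or more, and their part was not tested. In T KO T+ cells, a comparison without that library, the median from TS12 to TS13 was 0.04, with 33 of 62 members above 0. The sums were 42052 and 43483 FPKM. There 1 member was at least 2-fold higher and 1 lower, where 0.669% and 0.821% of all genes were: Hist1h2bb was at 625 and 1272 FPKM, and the lower one was Hist1h2ap. Set against T+ WT TS13 instead, the T KO library of TS12 had a member median of -0.22, with 1 member at least 2-fold higher and 2 lower, where 0.595% and 1.32% of all genes were. The T+ WT TS12 library has the lowest member sum of the 4 and is also the library with sensory receptor genes above 0; the part of the latter in the former was not tested. Comparisons of genotype and of stage share these 4 libraries.

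For stage, limma called 2 of 62 members in the 4 T+ libraries: 1 rose and 1 fell from TS12 to TS13, where 0.195% and 0.0611% of 8187 genes did. Hist3h2ba rose by 1.05 (SE 0.18, adjusted p = 0.0497) and passed under 2 of 9 other settings. Hist1h2ap fell by 5.27 (SE 0.47, adjusted p = 0.000618), the gene listed at 0 in both TS13 libraries that has near-identical copies. With libraries at 0 the size follows the pseudocount, and it was -8.54 with 0.1 and -3.14 with 5. An unadjusted p under 0.05 was found for 24 members (38.7%), against 9.04% of all genes. Without the T+ WT TS12 library, limma on stage alone was an alternative added after seeing the data. It had 1 library at TS12 and no genotype term, so its calls are not read. In that fit the member median was 0.12 in place of 0.51, and Hist3h2ba had a difference of 0.43.

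Genes that act with the histone genes were read beside them. In T KO against WT over both stages limma called 0 of 19 genes of histone mRNA transcription and processing (2 at an unadjusted p under 0.05), 0 of 22 histone chaperones and acetyl carriers (0), 0 of 41 genes of DNA replication (4), 0 of 25 of mitosis (2) and 0 of 11 histone genes outside the clusters (1). Of all genes 12.6% had an unadjusted p under 0.05 in this fit. At TS12, where the members' median was 0.74, the medians of these lists in the same order were 0.03, -0.01, 0.05, -0.06 and 0.13. Against T+ WT TS13 in its place they were -0.03, -0.00069, 0.08, -0.08 and -0.12, beside -0.22 for the members. For T KO against WT at TS13 the list medians were -0.17, 0.04, 0.02, 0.09 and -0.17, beside -0.18 for the members. Slbp, which binds the stem-loop, was at 130, 111, 111 and 104 FPKM in T+ WT TS12, T+ T KO TS12, T+ WT TS13 and T+ T KO TS13. Npat was at 12.5, 14.9, 13.4 and 11.6 FPKM and Pcna, the replication clamp, at 539, 457, 523 and 461. Slbp and Pcna were lower in T KO at both stages. Their limma differences were -0.16 (SE 0.16, adjusted p = 0.725) and -0.21 (SE 0.20, adjusted p = 0.710), which did not pass. Of the 41 DNA replication genes, 23 at TS12 and 21 at TS13 were higher in T KO. Of the replacement histones, which are made outside replication from polyadenylated mRNA, H2afz was at 734, 801, 928 and 627 FPKM, H3f3a at 714, 762, 965 and 762, and H3f3b at 450, 346, 421 and 351. H1f0, a linker histone of cells that leave division, was at 64.0, 74.1, 82.9 and 106 FPKM. H2afx, a variant known from DNA damage marking, was at 46, 68.3, 66.9 and 55.8 FPKM. H2afx, H2afz and H3f3a were higher in T KO at TS12 and lower at TS13 like most members, while H3f3b was lower and H1f0 higher at both. H1fx had the largest positive difference of these lists, 0.69 (SE 0.16, adjusted p = 0.0679), and Ccne2 the most negative, -0.50 (SE 0.15, adjusted p = 0.157); neither passed.

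In the Tbx6+ pair of TS14 members were lower in the library titled KO in 48 of 61 cases, with a median of -0.13 against -0.04 over all genes and sums of 18020 against 20112 FPKM. None was past 2-fold in either direction, where 2.47% of all genes were higher and 1.59% lower. Hist1h2bh (23 titled WT and 11.4 FPKM titled KO) and Hist1h1e (200 and 134) were lowest. All 3 Hist3 genes were higher in the library titled KO: Hist3h2a was at 107 and 129 FPKM, Hist3h2ba at 5.44 and 6.27, and Hist3h2bb-ps at 4.46 and 7.41. The counting intervals of Hist3h2ba overlap, those of the other 2 do not. The same pair differed in its cell markers, given here from the library titled WT to the one titled KO. The 6 axial progenitor markers went from 118 to 500 FPKM. The 8 red cell markers went from 1.43 FPKM, with 4 of them at or under 0.05 FPKM, to 356. Presomitic mesoderm went from 514 to 342, vessels from 28.3 to 7 and neural markers from 27 to 28.9. Their part in the member values was not tested. Mitosis genes were lower in 24 of 25 cases with a median of -0.37.

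In single cells the picture was set by few members. The C1 chemistry primes on poly(A) tails, and the depth of the cells is unknown. Of the 67 members 63 reached 1 FPKM in at least 1 of 53 cells, 17 did in most cells, and 33 did in at most 10. Hist1h2ai was above 0 in 53 of 53 cells, which gives an exact 95% interval of 93.3% to 100% that covers counting of cells only, and ran from 229 to 1908 FPKM with a median of 1031. Hist1h2ao (median 482 FPKM), Hist1h2an (298), Hist1h2ak (157) and Hist1h2ag (18.4) were also at or above 1 FPKM in every cell. Next came Hist3h2a in 42 cells, Hist1h1e and Hist1h4j in 40, Hist1h4k in 39 and Hist1h2bl in 37. Hist1h2ap was above 0 in 53 cells but at 1 FPKM in 18.

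**Figure D4:**
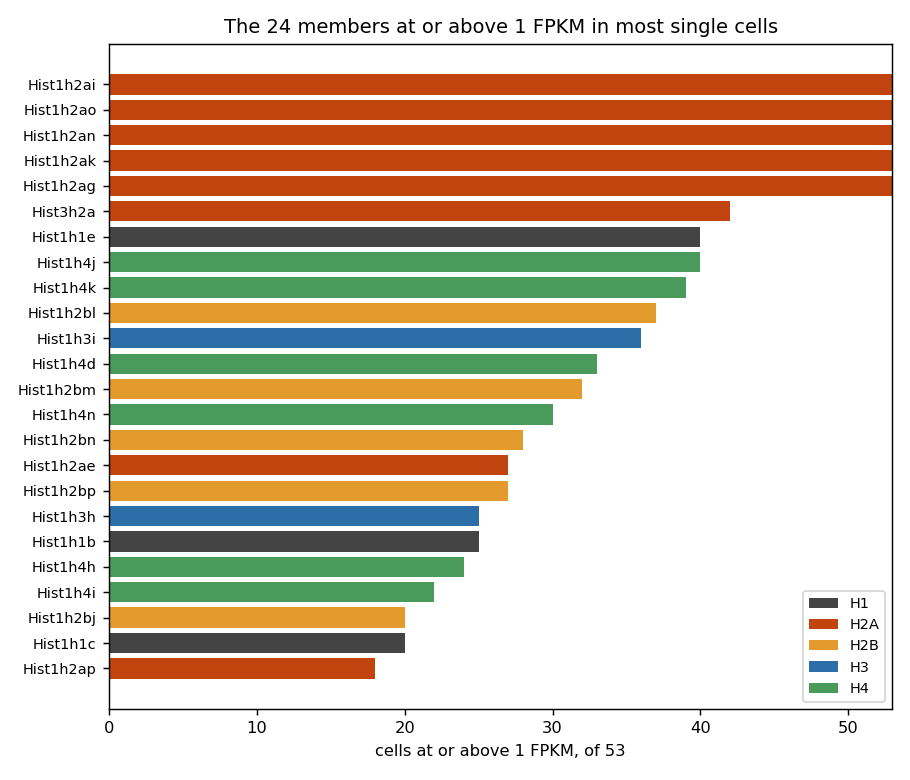
Bars give the number of the 53 T+ Sox2+ cells in which a member reached 1 FPKM, for the 24 members found in the largest number of cells, coloured by histone class. The H2A genes Hist1h2ai, Hist1h2ao, Hist1h2an, Hist1h2ak and Hist1h2ag reach 53 of 53 cells, and Hist3h2a follows with 42.

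Hist1h2ai, Hist1h2ao, Hist1h2an and Hist1h2ak together gave a median of 85.6% of the member FPKM of a cell (55.3% to 97.8%), and H2A as a class gave 87.4% of the members' summed mean. These 4 kept a near-fixed ratio from cell to cell. Relative to Hist1h2ai, Hist1h2ao was at a median of 0.451 with a coefficient of variation of 0.134, Hist1h2an at 0.272 with 0.118 and Hist1h2ak at 0.147 with 0.180. Log2 levels of the 3 correlated with Hist1h2ai at r = 0.94 to 0.97 over 53 cells of 1 chip. These genes are taken as near-identical copies, and their sequences were not compared here. In the bulk libraries the same ratios were others: Hist1h2ao was at 0.0267 to 0.177 of Hist1h2ai, Hist1h2an at 0.105 to 0.167 and Hist1h2ak at 0.259 to 0.415. Whether the reads of 1 gene were divided among these copies in the cells was not tested.

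Hist3h2a, not one of that set, was found in 42 of 53 cells (79.2%, exact 95% interval 65.9% to 89.2%), at a median of 2.25 and at most 72.2 FPKM. Its neighbour Hist3h2ba was found in 3 cells and Hist3h2bb-ps in 0 of 53. Taking 3 cells as the limit of a count of 0 allows up to 5.66% of cells with a value, which says nothing of cells whose mRNA this chemistry does not catch. Hist1h1t was also found in 0. The members other than the 6 above 0 in every cell summed to 14.7 to 1273 FPKM per cell (median 284), and 5 to 29 of them (median 16) reached 1 FPKM in a cell. Their summed log2 level had r = -0.04 with that of the DNA replication list over the 53 cells of the chip, and the 4 H2A genes had r = -0.38. With the number of genes above 0 in a cell the same 4 had r = -0.46 and the former -0.02, and the part of that number was not tested. Between classes, also without the 6 members above 0 in every cell, which are all H2A genes, r ran from -0.32 (H2A and H4) to 0.22 (H1 and H3). Slbp was at 1 FPKM or more in all 53 cells and Npat in 38. Of the histone genes outside the clusters, H2afz had a median of 2998 and H3f3a of 1204 FPKM.

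**Figure D5:**
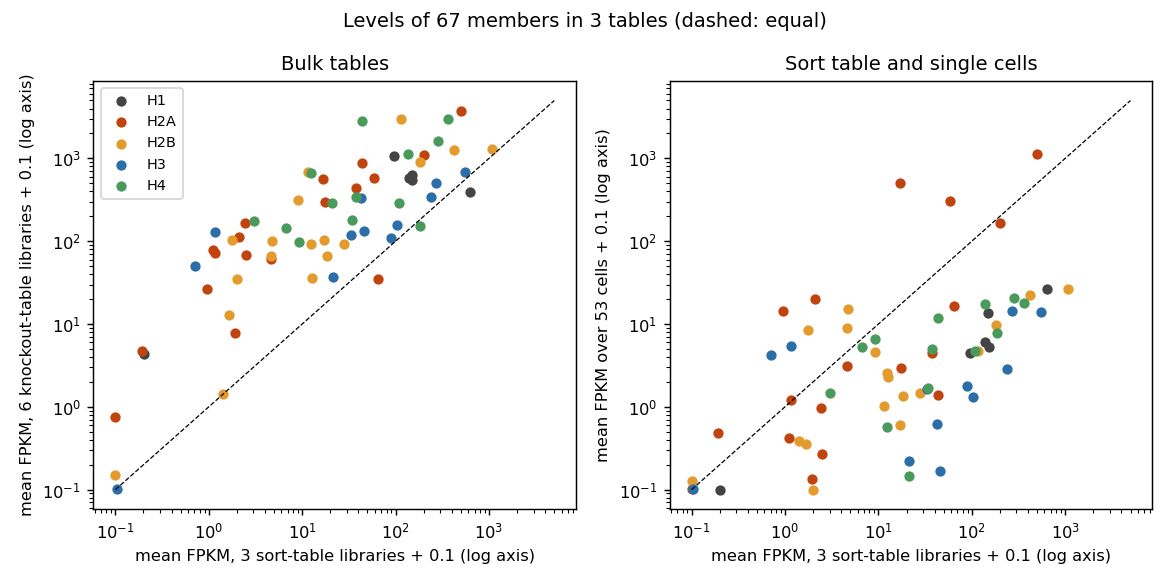
Each point is 1 of 67 members, coloured by class, with the mean FPKM of the 3 sort-table libraries against the mean of the 6 knockout-table libraries (left) and of the 53 cells (right), plus 0.1 on log axes. On the left most points lie above the line of equal level, and on the right most lie below it. Hist1h2ai, Hist1h2ao and Hist1h2an are among those above it on the right, as are some H2B and H3 genes such as Hist1h2bc and Hist1h3a.

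Levels in the cells ranked with those in bulk at rho = 0.60 (sort table) and 0.61 (knockout table) over 67 members. Hist1h2bl, the top member of the sort table at a mean of 1078 FPKM, averaged 26.6 FPKM over the cells, and Hist2h2bb, at 3025 FPKM in the knockout table, averaged 4.65. Hist1h2ao averaged 504 FPKM over the cells against 16.8 in the sort table and 558 in the knockout table. The 3 tables were normalised separately, so these levels are set side by side without a test.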

How the data were processed

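RNA was read from 3 tables of FPKM that the authors deposited, with 1 value per gene symbol. The submitters' processing notes name TopHat2 2.1.0, Bowtie 1.1.2, Cufflinks 2.2.1, Cuffdiff and Cuffnorm on mm10. How reads of near-identical genes were divided is not given in the sources used here. FPKM is not a count, so no count model was used. Differences of log2(FPKM + 1) were taken within a table and need a level of 5 FPKM in either library. Counts over all genes left out small RNAs, numbered gene models, mitochondrial genes, joined symbols and the 3 sorted genes, which kept 19770 symbols. Depth was estimated from the steps of low values times gene length. limma 3.58.1 (R 4.3.3), checked on simulated data, took the 4 T+ libraries of WT and T KO with genotype and stage as terms and an empirical Bayes trend, and called at an adjusted p of 0.05.

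Named are the 3 highest members per class, the testis, Hist2, Hist3 and Hist4 members, those called and the 10 in most cells. Of the 3 largest differences per direction some are named, and further members are named as examples. The members and gene lists were chosen with earlier results of these data known. Alternatives changed the pseudocount, minimum, scaling, model or libraries.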

Additional observations from a re-analysis of the deposited data

Results flagged for a closer look

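The summed level of the members in T KO against WT had a log2 ratio of 0.69 at TS12 and -0.18 at TS13. These are opposite directions at the 2 stages, with 1 library per group, and the difference was not tested. Of 1484 sensory receptor genes, which lie outside the comparisons of the members, 1050 were above 0 in the T+ WT TS12 library of the knockout table, against 24 to 37 in the other 8 bulk libraries.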

How the results depend on the processing

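No paired analysis was possible because each bulk group is 1 library, so no replicates can be paired across groups. Genotype was fitted with stage as a term instead. Upper-quartile scaling moved the median of all genes by at most 0.05. The number of members past 2-fold in T+ Sox2+ against Sox2+ cells, 2, became 5 with a pseudocount of 0.1, 0 with 5 and 1 with a minimum of 20 FPKM; in T+ Sox2+ against T+ cells it became 1 with that minimum. For T KO against WT at TS12 it was 11, and 3 with T+ WT TS13 as the reference, which turned the log2 ratio of summed levels from 0.69 to -0.23. From TS12 to TS13 in T KO it became 1 without members under 0.05 FPKM in 1 library. In the Tbx6+ pair it became 1 with a pseudocount of 0.1 or no minimum.

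With upper-quartile scaling the log2 ratio of summed levels was -0.15 for T+ Sox2+ against T+, -0.15 for T+ against Sox2+, 0.66 and -0.13 for T KO against WT at TS12 and TS13, 0.86 and 0.071 for TS13 against TS12 in WT and T KO, and -0.11 in the Tbx6+ pair. Without Hist1h2ai it was -0.20, -0.10, 0.68, -0.19, 0.91 and 0.040 for the first 6 of these.

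Genotype calls by limma, 2 members, became 1 with a minimum of 20 FPKM, upper-quartile scaling or no trend. They became 0 without stage as a term and 0 at a minimum fold of 1.5. There 1 and 2 of 62 members had an unadjusted p under 0.05, beside 9.48% and 1.61% of all genes. With no minimum 5 of 65 members rose and 0 fell, while 236 of 18427 genes rose and 351 fell. Without the T+ WT TS12 library the genotype calls are not read, and the member median was -0.20. Hist3h2bb-ps passed under 6 of 9 settings (adjusted p from 1.9e-14 to 0.391) and Hist3h2ba under 3 (1.3e-07 to 1.00). Stage calls, 2 members, became 1 with a pseudocount of 5, upper-quartile scaling, no trend, a minimum fold of 1.5 or without the T+ WT TS12 library, 0 with a minimum of 20 FPKM or without genotype as a term (20 and 19 at an unadjusted p under 0.05), and 18 with no minimum. The cause of these changes was not tested. Members found in most cells numbered 21 above 0 and 10 at 5 FPKM. The correlation of all members with DNA replication over cells, -0.11, was -0.45 on summed levels.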
